A study of Homo sapiens with 6 samples.

Results

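Integrins are cell surface receptors made of 1 alpha and 1 beta chain, and they tie the extracellular matrix to the actin cytoskeleton or, for the alpha6 beta4 pair, to keratin filaments at hemidesmosomes. The beta1 chain is shared by the largest set of alpha chains, among them the receptors for collagens, laminins and fibronectin, whereas beta3 and beta5 pair with alphaV and beta4 pairs with alpha6. A chain needs its partner to leave the endoplasmic reticulum, and alpha and beta chains come from separate genes.

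The 10 integrin genes described here are ITGB1, ITGB3, ITGB4 and ITGB5, which encode beta chains, and ITGA1, ITGA2, ITGA3, ITGA5, ITGA6 and ITGAV, which encode alpha chains. They are 10 of the 20442 genes in the table of read counts and 10 of its 26 integrin subunit genes. They were chosen by name with their measured values in the knockdown contrast known, so their fold changes are given as a description, with standard errors and without p-values. All 10 passed the filter on low counts.

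The libraries came from T24 cells, an established human bladder carcinoma line grown in serum-containing medium. The si-KNSTRN group (3 libraries) had received a small interfering RNA against KNSTRN, which encodes kinastrin, a protein of the mitotic spindle and kinetochore, for 24 h after the cells had attached. The si-NC group (3 libraries) had received a control small interfering RNA for the same 24 h, and both groups were otherwise handled alike. The design text calls the 3 libraries per group biological replicates and does not say whether they were transfected on separate days. KNSTRN itself had 269, 245 and 226 reads in si-KNSTRN libraries, against 777, 663 and 762 reads in si-NC libraries, a log2 fold change of -1.62 (SE 0.07).

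Library totals ran from 16386799 to 20596074 reads, and 3 reads corresponded to between 0.148 and 0.187 CPM, the read count scaled to a common library total after TMM normalization. The knockdown contrast was broad. With edgeR's quasi-likelihood test and Benjamini-Hochberg adjustment over 12650 genes, 62.5% of genes were called at an adjusted p under 0.05, made up of 31.2% higher and 31.3% lower in si-KNSTRN libraries. The 2 groups did not overlap in CPM for 67.3% of genes, and 6.43% were called with a change of at least 2-fold. Keratins KRT7, KRT8 and KRT18 carried most of the epithelial marker signal, whose summed level over 7 genes ran from 3079 to 3246 CPM in si-KNSTRN libraries and from 2837 to 3003 CPM in si-NC libraries. CDH1, the epithelial cadherin, had no read in any library. The other epithelial markers were scarce, with mean CPM in si-KNSTRN and si-NC libraries of 0.801 and 1.03 for KRT19, itself a keratin. The means were 0.695 and 0.722 for EPCAM and 1.49 and 2.13 for CLDN4, in the same order of groups. The epithelial label thus rests on KRT7, KRT8 and KRT18 alone. Of 8 urothelial markers, UPK3A and KRT5 had no read, and the sum of the 8 was 44.3 to 49.2 CPM in si-KNSTRN libraries against 28.7 to 32.8 CPM in si-NC libraries, nearly all of it PPARG. Summed markers of other cell types were low in every library. For 5 fibroblast genes, of which COL1A2 had no read, they were 10.7 to 12.3 CPM in si-KNSTRN against 14.3 to 15.96 CPM in si-NC libraries, and for 5 leukocyte genes, of which CD3E had no read, 1.33 to 1.45 CPM in si-KNSTRN against 0.933 to 1.13 CPM in si-NC libraries. For 4 endothelial genes they were 1.02 to 1.67 CPM in si-KNSTRN against 0.549 to 0.837 CPM in si-NC libraries. For 4 platelet genes, ITGA2B included and GP9 without a read, they were 3.01 to 4.197 CPM in si-KNSTRN against 5.02 to 6.32 CPM in si-NC libraries. Each of these sums separated the groups, and their part in the integrin results was not tested.

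Of the 10 integrin genes, 8 were called, 4 higher (ITGB3, ITGA2, ITGA5, ITGA6) and 4 lower (ITGB1, ITGB4, ITGAV, ITGA1) in si-KNSTRN libraries. The same 8 genes had libraries that did not overlap between the groups, and 3 of the 10 (ITGB1, ITGB3, ITGB4) were called with a change of at least 2-fold. The members were chosen on this contrast, so nothing is read from these shares against the background of 62.5%, 67.3% and 6.43%. The median log2 fold change of the 10 was -0.06, against -0.01 over all 12650 genes. The 10 chains had no common direction. The plot of CPM by library shows the abundant beta chain ITGB1 far lower, ITGB3 higher and the abundant alpha chain ITGA3 at overlapping levels.

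**Figure D1:**
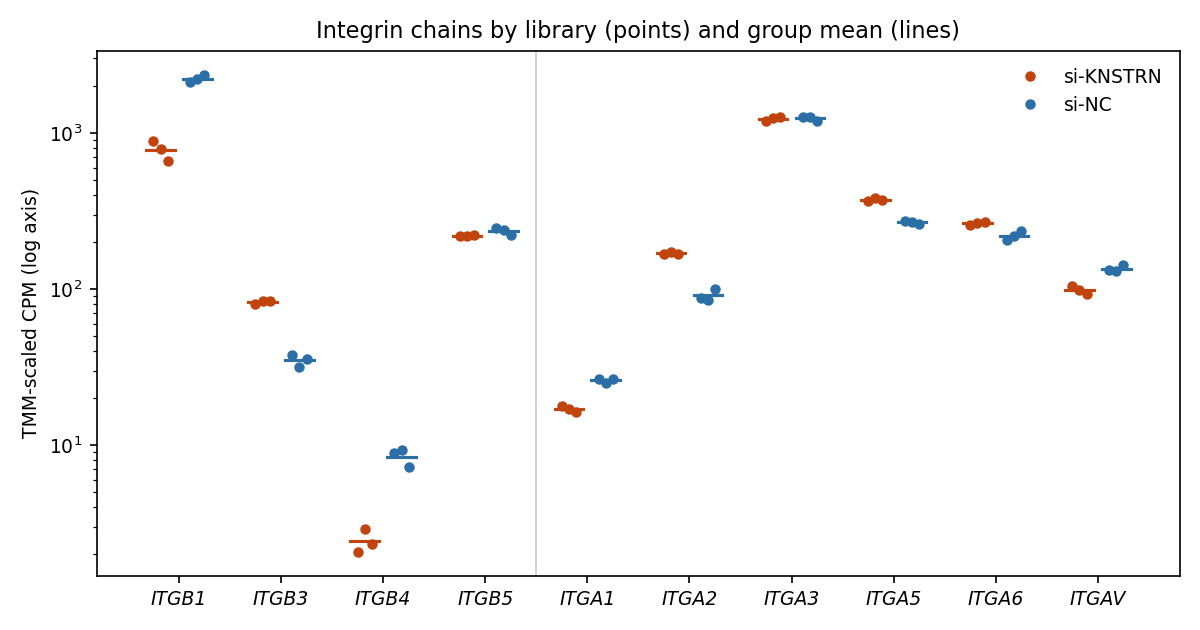
CPM after TMM scaling (log axis) of the 10 integrin genes, beta chains left and alpha chains right of the grey line. Points are libraries (si-KNSTRN left, si-NC right in each pair) and lines are means of 3. ITGB1 averaged 779 CPM in si-KNSTRN libraries and 2231 CPM in si-NC libraries, while ITGA3 averaged 1234 CPM in si-KNSTRN and 1242 CPM in si-NC libraries.

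ITGB1 encodes the beta1 chain, the common partner of alpha1, alpha2, alpha3, alpha5, alpha6 and alphaV. It lies on the minus strand of chromosome 10 from 32900318 to 32958230 (GRCh38). Gene positions here and below are from RefSeq, and strands are from GENCODE release 29. It had 17513, 14310 and 12229 reads in si-KNSTRN libraries, against 42730, 35741 and 43032 reads in si-NC libraries. On the CPM scale it stood at 886, 793 and 658 in si-KNSTRN libraries, against 2105, 2223 and 2364 in si-NC libraries. Every si-KNSTRN library was below every si-NC library, and the si-KNSTRN libraries differed more among themselves in proportion to their mean. The means were 779 ± 114 CPM in si-KNSTRN and 2231 ± 130 CPM in si-NC libraries (SD, n = 3 each), with a log2 fold change of -1.52 (SE 0.08), which left 34.9% of the si-NC level. In bulk RNA, a loss of the transcript in some cells and a lower level in every cell cannot be told apart.

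By mean CPM, ITGB1 ranked 147th of the genes tested in si-KNSTRN libraries and 34th in si-NC libraries. Of the 268 genes with at least 500 CPM in si-NC libraries it had the lowest log2 fold change, and of all 12650 genes the 107th lowest. That cut used the si-NC level alone, and ITGB1 was chosen with this contrast known, so both ranks are description only. It made up 26.2%, 23.7% and 20.5% of all integrin reads in si-KNSTRN libraries, against 47.0%, 48.6% and 50.6% in si-NC libraries. Reads of all 26 integrin genes together were 0.329% to 0.339% of a si-KNSTRN library and 0.442% to 0.464% of a si-NC library. Without ITGB1 the order turned round, with 0.250% to 0.262% in si-KNSTRN libraries and 0.229% to 0.234% in si-NC libraries. A processed pseudogene on chromosome 19 holds 13.9% of the 50-base windows of the ITGB1 transcript, and how such reads were assigned is not given in the sources used here.

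Word matches in the 3′ untranslated regions are shown because the hexamer TGAGTA stood out among lowered genes in earlier results of these same data, which makes the matches here a description and no support for that pattern. The sense strand of each gene's principal GENCODE transcript was searched, and positions count from the first base after the stop codon. TGAGTA occurred in 27.3% of the 3′ untranslated regions of 11951 tested genes and in 4 of the 10 integrin genes, ITGB1, ITGA2, ITGAV and ITGA1. Of these, ITGB1, ITGAV and ITGA1 were lower and ITGA2 was higher in si-KNSTRN libraries, while ITGB4, which was also lower, held none. The capitals mark the hexamer within 30 bases, at bases 900 to 905 of 1251 in ITGB1, 902 to 907 and 2620 to 2625 of 4180 in ITGA2, 1087 to 1092 of 3609 in ITGAV, and 228 to 233 and 4038 to 4043 of 6759 in ITGA1.
ITGB1: agactttttttaTGAGTActttttctttga
ITGA2, first: atttctgaaagaTGAGTAatttctttggca
ITGA2, second: acctcctttaggTGAGTActtccttaaata
ITGAV: accccaactttaTGAGTAatgcttggaata
ITGA1, first: actcatttttgtTGAGTAagcaaaattaca
ITGA1, second: aaacatttgctcTGAGTAccagcttcagtg
Longer regions hold more words. Among genes with regions of like length the hexamer was found in 24.4% for ITGB1, 58.3% for ITGA2, 53.7% for ITGAV and 71.6% for ITGA1. The extended word TGAGTAA, found in 10.7% of genes and overlapping TGAGTA, was present in ITGA2, ITGAV and ITGA1 and not in ITGB1. CTGAGTAA, found in 3.26% of genes, was in none of the 10.

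A second word is shown because ITGB1 alone of the 10 held it. TTATTTATT, the core of AU-rich elements that bind mRNA decay factors, occurred in 8.81% of the 11951 genes and lies in ITGB1 at bases 1143 to 1151. The shorter TATTTAT, which it contains, occurred in 33.4% of genes and in 6 of the 10. The site is printed with the word in capitals.
ITGB1, AU-rich: tttactgaagTTATTTATTaaatatgcct

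Of the other beta chains, ITGB3 was higher in si-KNSTRN libraries, ITGB4 was lower like ITGB1, and ITGB5 overlapped between the groups. ITGB3 encodes the beta3 chain, which forms the vitronectin receptor with alphaV, and lies on the plus strand of chromosome 17 from 47253827 to 47313743. It stood at 79.7, 83.3 and 83.5 CPM in si-KNSTRN libraries, against 37.7, 31.7 and 35.7 CPM in si-NC libraries. All si-KNSTRN libraries were above all si-NC libraries, with less spread among the si-KNSTRN libraries. The means were 82.2 ± 2.16 CPM in si-KNSTRN and 35.0 ± 3.07 CPM in si-NC libraries (SD, n = 3 each), with a log2 fold change of 1.23 (SE 0.06), the highest of the 10. GENCODE annotates a second, overlapping gene on chromosome 17 that holds 56.2% of the ITGB3 transcript's 50-base windows and is not a row of the count table used here.

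ITGB4 encodes the beta4 chain, the hemidesmosomal partner of alpha6, and lies on the plus strand of chromosome 17 from 75721459 to 75757818. It was scarce, with 41, 52 and 43 reads in si-KNSTRN libraries, against 180, 149 and 131 reads in si-NC libraries. The groups did not overlap. Its means were 2.42 ± 0.415 CPM in si-KNSTRN and 8.44 ± 1.10 CPM in si-NC libraries (SD, n = 3 each), with a log2 fold change of -1.80 (SE 0.15), the lowest of the 10 and also the least precise. GALK1, a galactokinase gene that overlaps it, had means of 21.2 ± 0.75 CPM in si-KNSTRN and 27.9 ± 3.11 CPM in si-NC libraries (SD, n = 3 each), with a log2 fold change of -0.40 (SE 0.08). The strand setting of the counting is not given in the sources used here, so reads from the overlap cannot be told apart.

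ITGB5 encodes the beta5 chain, an alphaV partner that binds vitronectin, and lies on the minus strand of chromosome 3 from 124761948 to 124901418. Its means were 220 ± 2.44 CPM in si-KNSTRN and 236 ± 13.2 CPM in si-NC libraries (SD, n = 3 each), and the groups overlapped. Its log2 fold change was -0.10 (SE 0.05), and it passed the threshold only with upper-quartile scaling or without si-NC library 3, at -0.15 in both cases.

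Among the alpha chains, ITGA2, ITGA5 and ITGA6 were higher in si-KNSTRN libraries, ITGAV and ITGA1 were lower, and ITGA3 overlapped between the groups. ITGA2 encodes alpha2, which forms a collagen receptor with beta1, and lies on the plus strand of chromosome 5 from 52989352 to 53094779. It stood at 168, 173 and 167 CPM in si-KNSTRN libraries, against 88.0, 85.6 and 100 CPM in si-NC libraries. The groups were well apart, and its log2 fold change of 0.89 (SE 0.06) was the highest of the alpha chains. ITGA1, which encodes alpha1, the other collagen-binding chain of the 10, lies on the same strand of chromosome 5 from 52787916 to 52959209 and went the other way. It stood at 17.9, 17.0 and 16.3 CPM in si-KNSTRN libraries, against 26.6, 25.1 and 26.4 CPM in si-NC libraries, a log2 fold change of -0.61 (SE 0.07). The 2 collagen receptor genes are close neighbours on the chromosome and differed in direction. PELO, a ribosome rescue gene within ITGA1, shares 3.98% of ITGA1's 50-base windows and had means of 53.7 ± 0.433 CPM in si-KNSTRN and 47.5 ± 0.777 CPM in si-NC libraries (SD, n = 3 each).

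ITGA5 encodes alpha5, which with beta1 forms the main fibronectin receptor, and lies on the minus strand of chromosome 12 from 54395261 to 54419266. It stood at 365, 383 and 371 CPM in si-KNSTRN libraries, against 271, 269 and 262 CPM in si-NC libraries. Every si-KNSTRN library was higher, and the log2 fold change was 0.48 (SE 0.04). ITGAV encodes alphaV, the partner of beta1, beta3, beta5, beta6 and beta8 in receptors for vitronectin and fibronectin, and lies on the plus strand of chromosome 2 from 186590056 to 186680901. It stood at 104, 99.1 and 93.2 CPM in si-KNSTRN libraries, against 132, 131 and 142 CPM in si-NC libraries, a log2 fold change of -0.45 (SE 0.05). Here all si-KNSTRN libraries were the lower ones.

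The laminin-binding alpha chains had the smallest fold changes of the 6. ITGA3 encodes alpha3, a laminin receptor chain that pairs with beta1, and lies on the plus strand of chromosome 17 from 50056110 to 50090481. It averaged 1234 ± 30.9 CPM in si-KNSTRN and 1242 ± 42.9 CPM in si-NC libraries (SD, n = 3 each), with overlapping groups and a log2 fold change of -0.01 (SE 0.05). ITGA6 encodes alpha6, which pairs with beta1 or beta4, and lies on the plus strand of chromosome 2 from 172427336 to 172506459. It stood at 258, 265 and 268 CPM in si-KNSTRN libraries, against 207, 218 and 236 CPM in si-NC libraries, a log2 fold change of 0.26 (SE 0.05). The groups did not overlap, though the gap between the lowest si-KNSTRN and the highest si-NC library was smaller than the range of the si-NC libraries.

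The other 16 integrin subunit genes were mostly scarce. ITGA4 and ITGA8 had no read in any library, and ITGAD, ITGAL, ITGAM, ITGAX and ITGB6 had at most 11 reads in any library and were not tested. Of the 9 tested, 2 rose and 3 fell in si-KNSTRN libraries, as the plot of subunit fold changes shows. These 5 calls are 55.6% of the 9, near the 62.5% of all genes. ITGA7, which encodes a laminin receptor chain of muscle that pairs with beta1, fell to 5.08 ± 0.419 CPM in si-KNSTRN libraries, against 12.5 ± 0.845 CPM in si-NC libraries (log2 fold change -1.29, SE 0.11, edgeR adjusted p = 2.7e-08). ITGB8, an alphaV partner that binds latent TGF-beta, fell to 11.1 ± 1.08 CPM in si-KNSTRN libraries, against 23.7 ± 0.674 CPM in si-NC libraries (log2 fold change -1.09, SE 0.08, edgeR adjusted p = 1.1e-08). ITGAE, which encodes the alpha chain of an E-cadherin receptor of lymphocytes, rose to 42.9 ± 0.961 CPM in si-KNSTRN libraries, against 32.6 ± 0.38 CPM in si-NC libraries (log2 fold change 0.40, SE 0.06, edgeR adjusted p = 1.5e-05). It overlaps P2RX5, an ATP-gated channel gene with a log2 fold change of 1.03 (SE 0.09), and HASPIN, a mitotic kinase gene with one of 0.22 (SE 0.08), and the part of their reads in its rise was not tested. ITGA11, a collagen receptor chain, rose to 2.61 ± 0.462 CPM in si-KNSTRN libraries, against 1.46 ± 0.544 CPM in si-NC libraries (log2 fold change 0.82, SE 0.24, edgeR adjusted p = 0.0069). ITGA2B, the platelet chain, fell to 1.80 ± 0.284 CPM in si-KNSTRN libraries, against 2.74 ± 0.417 CPM in si-NC libraries (log2 fold change -0.60, SE 0.19, edgeR adjusted p = 0.012), and its call was lost without si-NC library 3 (adjusted p = 0.063) or without si-KNSTRN library 3 (adjusted p = 0.050). ITGA9, ITGA10, ITGB2 and ITGB7 were not called, with log2 fold changes of -0.72, -0.03, -0.13 and -0.12.

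**Figure D2:**
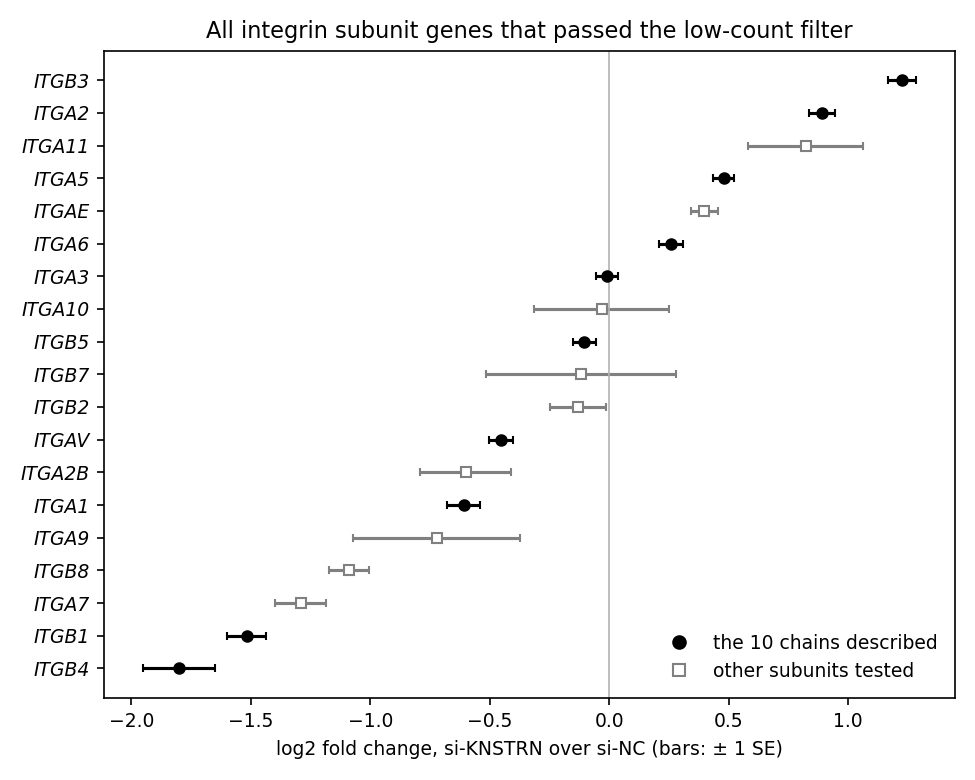
Log2 fold change of si-KNSTRN over si-NC libraries (x axis, bars ± 1 SE from edgeR) for the 10 integrin genes (filled circles) and the 9 other integrin subunit genes tested (open squares), ordered by value. ITGB4 at -1.80 and ITGB1 at -1.52 lie lowest and ITGB3 at 1.23 highest, and scarce genes such as ITGB7 carry wide bars.

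The comparison of ITGB1 with each partner was made within libraries, as a ratio of reads, which needs no scaling between libraries. Against ITGA3 there were 0.737, 0.641 and 0.521 ITGB1 reads per ITGA3 read in si-KNSTRN libraries, against 1.65, 1.77 and 1.98 in si-NC libraries. ITGB1 was thus the more heavily read gene of this pair in every si-NC library and the less read in every si-KNSTRN library. The log2 ratio differed by -1.52 between the group means, where the pooled SD of the libraries was 0.20.

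Against ITGA5 the ratio was 2.43, 2.07 and 1.77 in si-KNSTRN libraries and 7.77, 8.27 and 9.03 in si-NC libraries, a log2 difference of -2.01. Against ITGA2 it was 5.27, 4.57 and 3.94 in si-KNSTRN libraries and 23.9, 26.0 and 23.6 in si-NC libraries, a log2 difference of -2.42, the largest among the alpha chains. Both differences were larger than the log2 fold change of ITGB1 itself. For ITGA6 the log2 difference was -1.79, and for ITGAV and ITGA1, which were themselves lower, it was -1.07 and -0.92. The groups did not overlap in any of the 6 ratios to alpha chains, and the smallest difference, that to ITGA1, was large beside its pooled SD of 0.13.

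Against the other beta chains the ratios split. ITGB1 reads per ITGB3 read were 11.1, 9.52 and 7.88 in si-KNSTRN libraries and 55.9, 70.2 and 66.2 in si-NC libraries, a log2 difference of -2.76, the largest of the 9 ratios. Per ITGB5 read there were 4.06, 3.63 and 2.96 in si-KNSTRN libraries and 8.50, 9.32 and 10.7 in si-NC libraries, a log2 difference of -1.43. Per ITGB4 read there were 427, 275 and 284 in si-KNSTRN libraries and 237, 240 and 328 in si-NC libraries, and these overlapped. ITGB4 was the only chain of the 9 whose ratio to ITGB1 did not separate the groups. All these ratios share the ITGB1 reads and are not independent of each other.

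**Figure D3:**
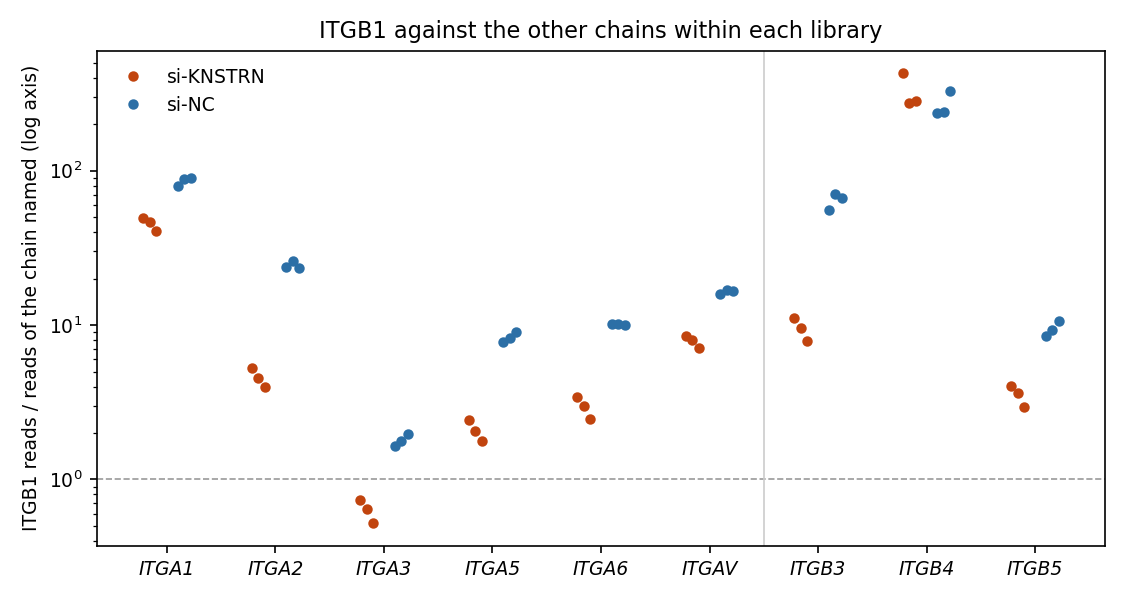
ITGB1 reads divided by the reads of each other integrin chain in the same library (log axis), alpha chains left and beta chains right of the grey line, si-KNSTRN points left of si-NC points. The dashed line marks equal reads. The ITGA3 ratio lies below it in all si-KNSTRN libraries (0.521 to 0.737) and above it in all si-NC libraries (1.65 to 1.98), and only the ITGB4 ratios overlap.

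Pairs that do not involve beta1 shifted as well. ITGAV reads per ITGB3 read were 1.31, 1.19 and 1.12 in si-KNSTRN libraries and 3.51, 4.14 and 3.98 in si-NC libraries. Near-equal reads are not equal levels, because the 2 transcripts differ in length. Per kilobase of transcript, ITGAV averaged 14.1 CPM and ITGB3 20.6 CPM in si-KNSTRN libraries. In si-NC libraries ITGAV averaged 19.2 CPM and ITGB3 8.77 CPM per kilobase, the opposite order. ITGAV per ITGB5 read was 0.477, 0.453 and 0.419 in si-KNSTRN libraries and 0.534, 0.550 and 0.641 in si-NC libraries. This was a smaller separation in the same direction as the ratio to ITGB3. ITGAV per ITGB8 read went the other way, with 8.99, 8.32 and 9.41 in si-KNSTRN libraries and 5.67, 5.64 and 5.82 in si-NC libraries. ITGA6 per ITGB4 read was 125, 92.1 and 116 in si-KNSTRN libraries and 23.3, 23.5 and 32.7 in si-NC libraries. For the hemidesmosomal pair the imbalance towards the alpha chain was thus wider in si-KNSTRN libraries.

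Levels were compared between genes as CPM per kilobase of transcript, since longer transcripts collect more reads. In si-KNSTRN libraries the order from high to low was ITGA3 (337 CPM per kilobase), ITGB1 (209), ITGA5 (83.9), ITGA6 (77.7), ITGB5 (50.3), ITGA2 (21.5), ITGB3 (20.6), ITGAV (14.1), ITGA1 (1.59) and ITGB4 (0.409). In si-NC libraries it was ITGB1 (598 CPM per kilobase), ITGA3 (339), ITGA6 (64.9), ITGA5 (60.1), ITGB5 (54.0), ITGAV (19.2), ITGA2 (11.6), ITGB3 (8.77), ITGA1 (2.42) and ITGB4 (1.43). The first place passed to ITGA3 in si-KNSTRN libraries, and ITGA2 and ITGB3 stood above ITGAV there and below it in si-NC libraries. Some neighbours were close: ITGA2 at 21.5 ± 0.441 and ITGB3 at 20.6 ± 0.54 in si-KNSTRN libraries, and ITGA6 at 64.9 ± 4.26 and ITGA5 at 60.1 ± 1.07 in si-NC libraries (CPM per kilobase, SD, n = 3 each). Libraries of these pairs did not overlap, although those of ITGA6 and ITGA5 almost touched. The rank of ITGA6 depended on the transcript taken: with the longest or the principal transcript it stood at 47.0 CPM per kilobase in si-KNSTRN and 39.2 in si-NC libraries, below ITGB5.

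The 6 alpha chains described here can each pair with beta1 but are not all of its partners, and ITGA7, for instance, was left out of the sum. They summed to 535 ± 10.2 CPM per kilobase in si-KNSTRN libraries and 497 ± 6.82 in si-NC libraries (SD, n = 3 each). Set over ITGB1 in the same library, the sum was 2.21, 2.54 and 3.07 times ITGB1 in si-KNSTRN libraries, against 0.889, 0.839 and 0.772 times in si-NC libraries. The alpha RNA was thus below the ITGB1 RNA per length in all si-NC libraries and above it in all si-KNSTRN libraries, as the bars per library show. Without ITGA6 and ITGAV, which also serve other beta chains, the mean was 2.16 in si-KNSTRN and 0.693 in si-NC libraries. With all 6 alpha chains and the longest or principal transcripts, the mean was 2.08 in si-KNSTRN and 0.658 in si-NC libraries. These are levels of RNA, and protein or surface receptors were not measured.

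**Figure D4:**
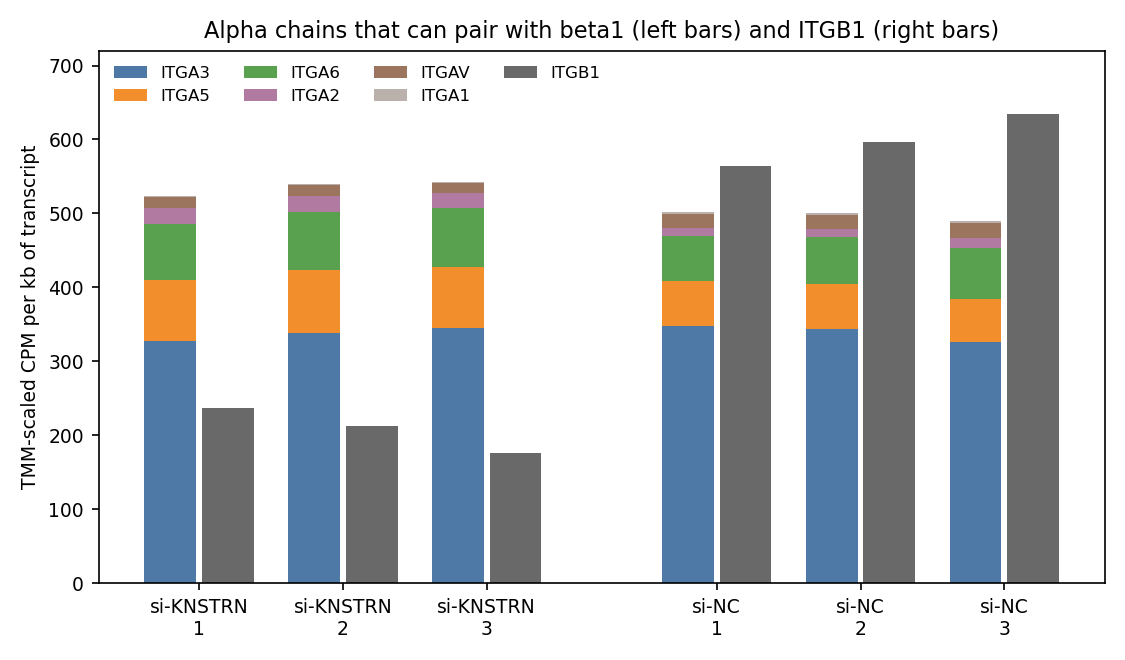
CPM per kilobase of transcript in each library, si-KNSTRN libraries left and si-NC libraries right. The stacked left bar of each pair sums the 6 alpha chains described here, which can pair with beta1, and the dark right bar is ITGB1. The stacks average 535 in si-KNSTRN and 497 in si-NC libraries, while ITGB1 averages 209 in si-KNSTRN and 598 in si-NC libraries.

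Within the 7 beta chains tested, ITGB1 made up 73.4 ± 3.21% of the summed CPM per kilobase in si-KNSTRN libraries and 89.6 ± 0.991% in si-NC libraries (SD, n = 3 each). ITGB5 accounted for 17.9 ± 2.11% in si-KNSTRN and 8.11 ± 0.827% in si-NC libraries, although its own CPM overlapped between the groups. ITGB3 accounted for 7.32 ± 0.941% in si-KNSTRN and 1.32 ± 0.149% in si-NC libraries. Within the 12 alpha chains tested, ITGA3 held the largest share, 61.3 ± 0.541% in si-KNSTRN and 66.4 ± 1.39% in si-NC libraries. ITGA5 held 15.3 ± 0.283% in si-KNSTRN and 11.8 ± 0.0517% in si-NC libraries. ITGA6 held 14.2 ± 0.0148% in si-KNSTRN and 12.7 ± 1.01% in si-NC libraries, with its mean above that of ITGA5 in si-NC libraries only. This order depended on the transcript taken. With the longest or principal transcript ITGA6 was below ITGA5 in both groups. It then stood at 47.0 against 83.9 CPM per kilobase in si-KNSTRN libraries and at 39.2 against 60.1 in si-NC libraries.

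The 5 genes whose profile over the 6 libraries was nearest to that of ITGB1, by Euclidean distance of mean-centred log2 CPM among 5858 genes, were SLC44A1, a choline transporter (distance 0.147), FAS, a death receptor (0.169), PAM, a peptide-amidating enzyme (0.172), MAT2B, a regulatory subunit of S-adenosylmethionine synthesis (0.206), and AXL, a receptor tyrosine kinase (0.226). None is an integrin gene. Their log2 fold changes were -1.52, -1.58, -1.60, -1.36 and -1.55, against -1.52 for ITGB1, and the likeness rests mainly on this difference between 2 groups of 3 libraries.

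Genes around the integrins were taken as 5 lists by role, drawn up with earlier results of these data known, and each count below is set beside 31.2% of all genes called higher and 31.3% called lower. Of the 28 matrix ligand genes tested, 8 rose, 13 fell and 7 were not called, with a median log2 fold change of -0.14. LAMA4, the alpha chain of an endothelial and mesenchymal laminin, fell by 1.02 on the log2 scale (SE 0.06, edgeR adjusted p = 4.6e-10), and THBS1, which encodes thrombospondin, fell by 1.10 (SE 0.07, edgeR adjusted p = 6.1e-10). CCN2, a matricellular integrin ligand, rose by 0.79 (SE 0.06, edgeR adjusted p = 6.8e-09). FN1, the fibronectin gene, picked with its values in view, fell to 13872 ± 453 CPM in si-KNSTRN libraries, against 16167 ± 785 CPM in si-NC libraries (log2 fold change -0.22, SE 0.05, edgeR adjusted p = 0.00086).

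Hemidesmosome components, tetraspanins and other surface partners gave 5 of 17 higher and 10 of 17 lower, with 2 not called and a median log2 fold change of -0.17. CD151, the tetraspanin that binds alpha3 beta1 and alpha6 beta4 directly, fell to 182 ± 11.9 CPM in si-KNSTRN libraries, against 370 ± 18.1 CPM in si-NC libraries (log2 fold change -1.02, SE 0.05, edgeR adjusted p = 1.6e-10). CD82, a tetraspanin known as a metastasis suppressor, fell by 0.80 (SE 0.07, edgeR adjusted p = 3.7e-08). PLAUR, the urokinase receptor, rose to 206 ± 4.42 CPM in si-KNSTRN libraries, against 110 ± 3.14 CPM in si-NC libraries (log2 fold change 0.90, SE 0.04, edgeR adjusted p = 6.4e-11). COL17A1, the hemidesmosomal transmembrane collagen, rose by 0.81 (SE 0.06, edgeR adjusted p = 1.3e-08), whereas ITGB4 of the same structure was lower. PLEC and DST, which encode the plakins that link beta4 to keratin and were picked with their values in view, fell by 0.44 and 0.42 (edgeR adjusted p = 7.7e-07 and 5.2e-07).

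Genes of talins, kindlins and other adhesion adaptors were split. Of 33 tested, 12 rose, 10 fell and 11 were not called, with a median log2 fold change of 0.02. VCL, the talin-binding protein vinculin, fell to 313 ± 24.2 CPM in si-KNSTRN libraries, against 561 ± 15.3 CPM in si-NC libraries (log2 fold change -0.84, SE 0.05, edgeR adjusted p = 1.8e-09), and KANK2, another talin partner, fell by 0.93 (SE 0.05, edgeR adjusted p = 2.2e-10). FERMT1, an epithelial kindlin that activates beta chains, rose by 0.82 (SE 0.07, edgeR adjusted p = 2.6e-08), and PDLIM5, an actin-associated LIM protein, rose by 0.79 (SE 0.05, edgeR adjusted p = 3.7e-09). The main talin gene TLN1, picked with its values in view, fell by 0.26 (SE 0.05, edgeR adjusted p = 8.4e-05).

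Of 30 kinases and scaffolds downstream of integrins, 15 rose, 7 fell and 8 were not called, with a median log2 fold change of 0.12. CAV1, which encodes caveolin and couples beta1 to Src family kinases, fell to 172 ± 4.66 CPM in si-KNSTRN libraries, against 333 ± 4.83 CPM in si-NC libraries (log2 fold change -0.95, SE 0.04, edgeR adjusted p = 2.5e-11). BCAR1, the Cas scaffold of focal adhesions, rose by 0.52 (SE 0.05, edgeR adjusted p = 4.0e-07), and RAPGEF1, an exchange factor for the integrin activator Rap, rose by 0.62 (SE 0.05, edgeR adjusted p = 1.2e-08). NEDD9, a second Cas family scaffold, rose to 2.02 ± 0.314 CPM in si-KNSTRN libraries, against 0.296 ± 0.0767 CPM in si-NC libraries (edgeR adjusted p = 5.6e-07), which rests on few reads per si-NC library.

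Of 24 integrin regulators and trafficking genes, 10 rose, 5 fell and 9 were not called, with a median log2 fold change of 0.10. MYO10, the myosin that carries integrins along filopodia, rose to 434 ± 11.4 CPM in si-KNSTRN libraries, against 306 ± 8.39 CPM in si-NC libraries (log2 fold change 0.51, SE 0.04, edgeR adjusted p = 6.2e-08). PPFIA1, a liprin of focal adhesions, rose by 0.41 (SE 0.05, edgeR adjusted p = 1.3e-06), and RAB5A, the early endosome GTPase that takes up beta1, rose by 0.43 (SE 0.06, edgeR adjusted p = 9.4e-06). NUMB, an endocytic adaptor of integrins, fell by 0.33 (SE 0.05, edgeR adjusted p = 7.7e-06). The strip plot of the 5 lists shows members on both sides of 0 in each.

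**Figure D5:**
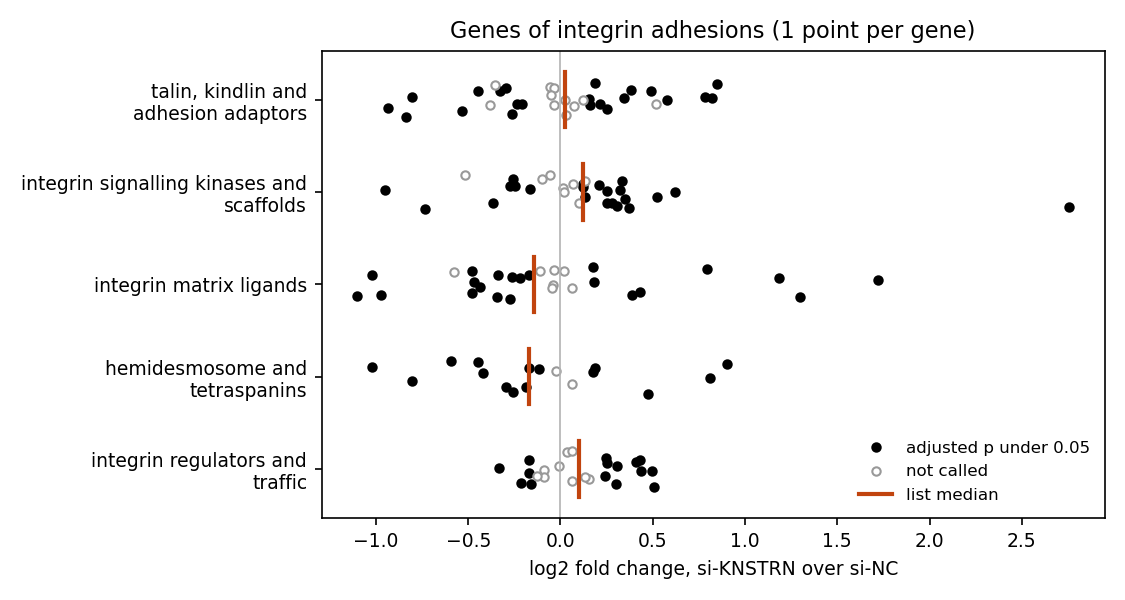
Log2 fold change of si-KNSTRN over si-NC libraries (x axis) of each tested gene in the 5 lists, filled where the adjusted p was under 0.05 and open where not, with the list median as a bar. Medians lie between -0.17 (hemidesmosome and tetraspanins) and 0.12 (kinases and scaffolds), and NEDD9 stands apart at 2.76.

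Promoter sequence was available for 7 of the 10 genes, in a RefSeq table of GRCh38.p14 with 250 bases before and 50 after each start, and ITGB3, ITGB4 and ITGA3 were not matched in it. The AP-1 word TGANTCA, searched on both strands, was found in 4.59% of 10272 promoters of tested genes and in 1 of the 7, ITGA5. It is printed in capitals within 29 bases of the minus strand, chr12:54419255-54419283. The word lies before the gene and ends on its first base.
ITGA5 promoter: cctccccgcgtTGAGTCAttcgcctctgg
The TEAD word GGAATG was in 10.7% of promoters and in those of ITGB1 and ITGA5, which differed in direction. The SP1 word GGGCGG was in 70.0% of promoters and in 5 of the 7, TATAAA in 5.69% and in ITGA6 alone, and TGACGTCA in 3.24% and in none of the 7. These words were also searched on both strands. The ITGA6 match reads TTTATA on the sense strand, so TATAAA lies on the opposite strand.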

How the data were processed

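The deposited table holds raw counts of reads for each gene, with a column for each of 6 libraries. HISAT2 2.0.1, featureCounts, fastp 0.20.0 and FastQC 0.11.5 are named with the build GRCh38 in the submitters' processing notes, without order or settings. The strand setting is not given in the sources used here. Of 20442 genes, 3984 had no read.

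edgeR 4.0.16 (R 4.3.3) was run on all genes with its low-count filter (minimum count 10), TMM scaling and a group term only, tested two-sidedly by quasi-likelihood (si-KNSTRN over si-NC) and adjusted by Benjamini-Hochberg over 12650 genes, with a call at 0.05. The code was tested on simulated data. Alternatives used DESeq2 1.42.0, limma-voom 3.58.1, other scalings and filters, a replicate block and each library left out. Replicate pairs differed beyond sampling noise and none was merged. Lengths came from the GENCODE release 29 transcript with the longest coding sequence.

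The members and lists were chosen with earlier results of these data known. Named were KNSTRN, the 10 integrin genes, other tested subunits, the 4 genes of smallest p in each of 5 lists and the 5 genes nearest to ITGB1, besides those said to be picked with their values in view. A gene that this rule names is not reported here. CPM intervals are SDs, and 3-read floors cover counting error only.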

Additional observations from a re-analysis of the deposited data

How the results depend on the processing

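Each of the 14 alternatives (other scalings, DESeq2, limma-voom, other filters, the replicate block and each library left out) kept the direction and the call of 8 of the 10 integrin genes, and ITGB1 ran from -1.62 to -1.41 on the log2 scale. Of the other two, ITGA3 stayed uncalled but its sign varied, between -0.05 and 0.03, and ITGB5 was called at -0.15 with upper-quartile scaling and without si-NC library 3. Upper-quartile scaling also moved the median log2 fold change of the 10 genes to -0.10. With the longest or the principal transcript (the second chosen after seeing the data), 8 of the 10 genes kept their rank per length in si-KNSTRN and 7 in si-NC libraries, and the summed alpha chains over ITGB1 were 2.08 in si-KNSTRN and 0.658 in si-NC libraries. No pairing of the libraries by replicate number was seen. Same-numbered deviations from group means correlated at -0.11, 0.09 and -0.08 over 9638 genes, and not every library correlated best with its own number. Deviations from a mean of 3 libraries depend on each other, so these values cannot settle whether same-numbered libraries were handled together. A fit with the replicate block called 7688 genes, against 7905 without it. ITGB4, with 41 to 180 reads per library, is limited by depth, and 7 integrin subunits with at most 11 reads in any library could not be tested.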
